A study of Homo sapiens with 18 samples.

Results

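The replication-dependent histone genes, which encode the core histones H2A, H2B, H3 and H4 and the linker histone H1, were examined in polyA+ RNA-seq libraries of 3 human cell lines kept in normoxia or in hypoxia. Members were all genes of the count files whose symbol begins with HIST1H, HIST2H, HIST3H or HIST4H, and they were kept where at least 3 of the 18 samples had 10 or more counts. This name rule found 73 of the 23106 genes in the files and kept 33. HKC-8 is a renal proximal tubular epithelial line. RCC4 is a renal cancer line, and the label RCC4+VHL and the series design give the RCC4 cells here as stably carrying wild-type VHL, the ubiquitin ligase that marks HIF-alpha for destruction in oxygenated cells. How many clones were used is not stated in the sources used here. HepG2 is a hepatocellular cancer line. Each line had 3 normoxic and 3 hypoxic samples. Hypoxia was 0.5% oxygen for 16 hours in HKC-8 and HepG2 by the labels, and 1% for 24 hours in RCC4, for which the study's text gives 0.5% and 16 hours instead. For HKC-8 the sample titles name 0.1% oxygen in hypoxia and 21% in normoxia.

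Histone cluster mRNAs are made mainly in S phase, when new DNA is packed into nucleosomes. They are the only abundant metazoan mRNAs that normally lack a polyA tail: their 3′ ends are formed by a cut just after a conserved stem-loop that is bound by the stem-loop binding protein SLBP. Some of these genes also give polyadenylated transcripts, which run past the stem-loop to a downstream polyA signal, and libraries selected for polyA tails catch mainly these forms. Levels in these libraries therefore describe tailed histone transcripts and not the whole histone mRNA pool. In bulk RNA, fewer cells that express a gene and less RNA per cell cannot be told apart.

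Of the 73 genes, 66 had a single model in GENCODE 44 on GRCh37, and 52 of these lie on chromosome 6, 13 on chromosome 1 and 1 on chromosome 12. The stem-loop was found within 150 bases after the stop codon in 62 of 65 members with a coding sequence (95.4%), and in 2 of 19816 other protein-coding genes (0.0101%). The label of the gene group was thus borne out by the sequence for nearly every member. It was not found in this window of HIST1H2BI, HIST1H3E or HIST1H4L. The sites of the 5 genes on which the results below mainly turn are given with the 16 bases of the stem-loop in capitals, from chr6:26158810-26158835 on the plus strand for HIST1H2BD, chr6:26124892-26124917 on the plus strand for HIST1H2AC, and chr6:26055967-26055992, chr6:27114140-27114165 and chr1:149857733-149857758 on the minus strand for the other three.
HIST1H1C: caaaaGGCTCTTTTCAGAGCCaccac
HIST1H2AC: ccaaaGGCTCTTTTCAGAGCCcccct
HIST1H2BD: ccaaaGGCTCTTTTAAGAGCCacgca
HIST1H2BK: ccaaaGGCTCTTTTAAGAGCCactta
HIST2H2BE: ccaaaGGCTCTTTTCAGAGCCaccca

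The letters AATAAA, the usual polyA signal, began within 20 bases after the loop in 3 of the 62 members with a stem-loop. They stood 12 bases after it in HIST1H1C and in HIST1H2BD and 13 bases after it in HIST2H2AA4. In HIST1H2AC they were first met 745 bases downstream, in HIST1H2BK 1552 bases and in HIST2H2BE 1705 bases. Within 150 bases after the stop codon, on the sense strand, AATAAA was present in 4 of 65 members (6.15%) and in 13.9% of the other protein-coding genes. All 31 kept members with a model have a main GENCODE transcript of a single exon. The HIST2H2BE transcript, chr1:149856009-149858232, is 2224 bases long and goes on past its stem-loop, whereas those of HIST1H2BK (chr6:27114140-27114634), HIST1H2BD (chr6:26158350-26158835) and HIST1H2AC (chr6:26124400-26124918) end at it and are 495, 486 and 519 bases long. The UCSC gene models on which the reads were counted were not used here and may differ from these.

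Promoters of the members carried the motifs known for histone genes. In the 300 bases from 250 upstream to 50 downstream of the start, searched on both strands, CCAAT was present in 57 of 66 members (86.4%) against 35.8% of other protein-coding genes, and TATAAA in 44 (66.7%) against 9.43%. The octamer ATTTGCAT, which is bound by POU-domain factors, was found in 12 of 16 H2B promoters (75%) and 13 of 17 H2A promoters (76.5%), in none of the H1, H3 or H4 promoters, and in 1.46% of the others. The core of the hypoxia response element, ACGTG or GCGTG, which is the letters that HIF binds, was present in 21 of 66 member promoters (31.8%) and in 56.6% of other promoters. The promoters of HIST1H2BD and HIST2H2BE are printed because these genes had the responses described below. HIST1H2BD has 4 CCAAT and 2 TATAAA matches and no octamer, HIST2H2BE has 3 CCAAT, 2 TATAAA and 1 octamer, and no HRE core was found in either. Capitals mark these motifs, on either strand, in chr6:26158100-26158399 on the plus strand and chr1:149858183-149858482 on the minus strand.
HIST1H2BD: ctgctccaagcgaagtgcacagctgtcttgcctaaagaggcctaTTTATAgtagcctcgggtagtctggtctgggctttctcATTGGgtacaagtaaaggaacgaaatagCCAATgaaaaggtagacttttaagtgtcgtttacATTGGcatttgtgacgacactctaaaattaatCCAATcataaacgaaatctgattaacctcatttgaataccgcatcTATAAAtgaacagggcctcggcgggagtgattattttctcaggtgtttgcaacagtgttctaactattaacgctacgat
HIST2H2BE: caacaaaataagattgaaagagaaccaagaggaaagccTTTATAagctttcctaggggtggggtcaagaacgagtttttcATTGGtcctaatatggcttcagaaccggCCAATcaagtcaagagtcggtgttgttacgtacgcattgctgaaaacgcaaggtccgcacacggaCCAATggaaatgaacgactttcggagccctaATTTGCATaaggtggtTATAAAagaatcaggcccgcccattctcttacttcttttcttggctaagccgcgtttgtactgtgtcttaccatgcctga

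Many histone genes are near-identical copies of each other, and the authors removed fragments that did not map uniquely before counting. For each main transcript the share of its 31-base words that occur at a single place in the genome was counted. It was 0% for HIST2H2AA4, HIST2H3A, HIST2H3C, HIST2H4A and HIST2H4B, and these 5 genes, of 12 with a model that had no counts, were at 0 in every sample. Among the kept members the share ran from 13.6% to 100%, with a median of 92.1%. It was 29% for HIST1H2BK, 71.7% for HIST1H2BD, 87.8% for HIST2H2BE, 93.9% for HIST1H2AC and 99.3% for HIST1H1C. Within its model only a small stretch of HIST1H2BK is unique, and its counts are uncertain. Where along the gene its reads fell was not examined, and tailed forms may run past the model. A lack of counts for the copied genes is thus no measure of their expression. Several HIST1 members also overlap other GENCODE genes on the same or the other strand, and whether the counting used strand is not given in the sources used here.

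Samples held 40915980 to 97984260 counts, so that 3 counts, the upper limit that a count of 0 allows, stood for 0.0307 to 0.0776 CPM (counts relative to the library total as scaled by edgeR's TMM). These limits cover counting error only. Of the 40 genes left out, 15 were at 0 in all 18 samples and 25 had at least 1 count. Kept were 2 of 6 H1 genes, 8 of 18 H2A, 12 of 20 H2B, 6 of 14 H3 and 5 of 15 H4. Only 5 kept members had 10 or more counts in all 18 samples, and 14 of the 33 stayed under 10 counts in every RCC4 sample, against 2 in HKC-8 and 3 in HepG2. HIST1H3B, HIST1H3G and HIST2H2BF were just inside the rule, with highest counts of 16, 11 and 14, and HIST1H2AJ was just outside it, with 2 samples at 10 or more and a highest count of 13. The labels were checked against marker genes. ALB, AFP, APOA1, TTR and HNF4A, all liver genes, were high in HepG2 (ALB 10700 CPM in normoxia) and at 10 counts or fewer in each HKC-8 and RCC4 sample. PAX8, a renal transcription factor, was at 165 CPM in normoxic HKC-8, 132 CPM in normoxic RCC4 and 9.43 CPM in normoxic HepG2. PAX2 was at 4 counts or fewer in HKC-8 and CUBN was below 1 CPM in all groups, so that not every renal marker was present. Nothing in the labels says that replicates came from separate cultures, and p-values then measure only the spread between these samples.

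**Figure D1:**
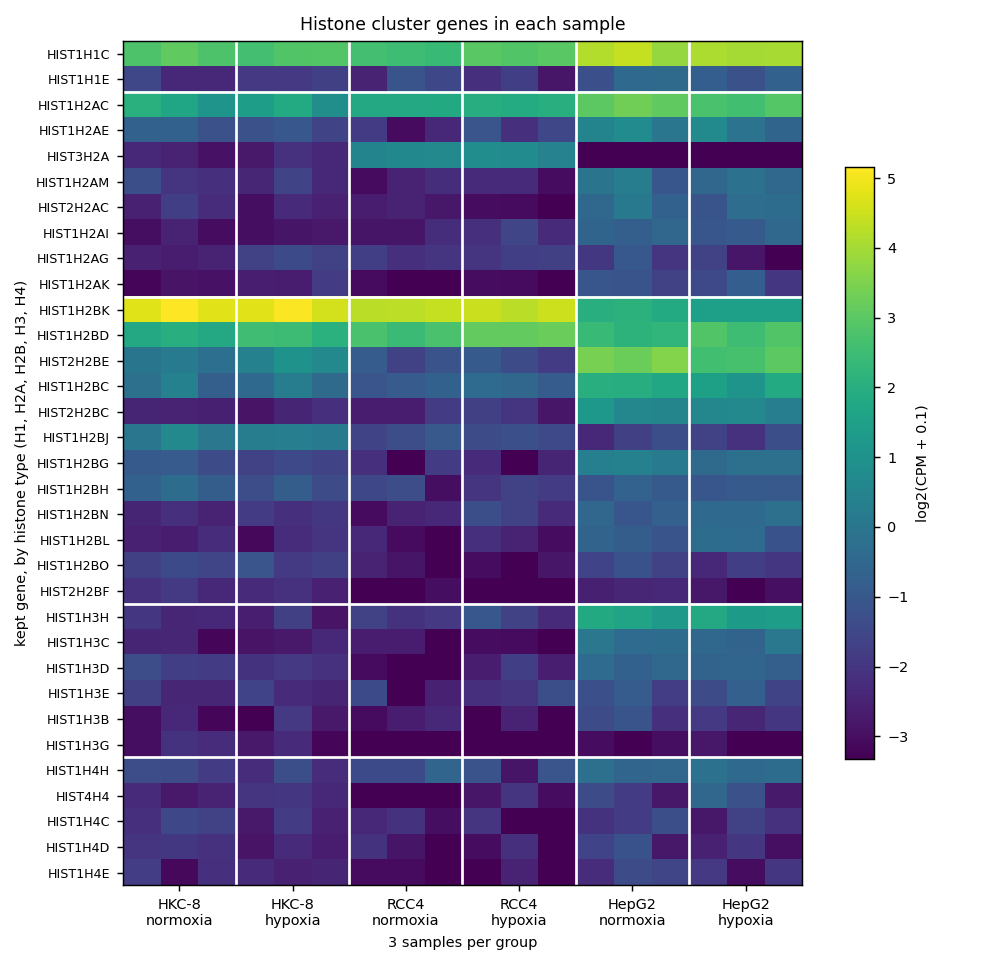
Level of the 33 kept genes (vertical axis, grouped by histone type and ordered by mean level within it) in the 18 samples (horizontal axis, 3 per group), as log2(CPM + 0.1). HIST1H2BK and HIST1H1C are bright in every sample, HIST2H2BE is brightest in HepG2, and HIST3H2A is brightest in RCC4 and at 0 in HepG2.

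A small number of genes made up nearly all of the signal. The 12 members with the highest mean level held 84.9% to 96.9% of all member counts in a sample. HIST1H2BK, which encodes an H2B, alone took 55.2% to 60.8% of them in HKC-8 and 43.7% to 51.2% in RCC4 but 4.61% to 6.14% in HepG2. HIST1H1C, which encodes the linker histone H1.2, took 23.8% to 30.9% of the member counts in HepG2. Per kilobase of the GENCODE transcript, the order in normoxic HKC-8 was HIST1H2BK (60.4 CPM per kb), HIST1H1C (10.0), HIST1H2BD (7.30) and HIST1H2AC (5.91). In normoxic HepG2 it was HIST1H1C (24.1 CPM per kb), HIST1H2AC (17.0), HIST1H2BD (9.65), HIST1H2BC (7.94), HIST1H2BK (7.90) and HIST1H3H (5.94). These orders depend on the models. HIST2H2BE, at 4.78 CPM per kb there, is divided by 2224 bases that run past its stem-loop. The models of HIST1H2BK, HIST1H2BD and HIST1H2AC end at the loop, and their tailed transcripts may be longer by unequal lengths. The sum over the 33 members was 50.8 CPM ± 7.47 (SD, n = 3) in normoxic and 50.1 ± 8.07 in hypoxic HKC-8. It was 39.9 ± 1.32 and 46.6 ± 2.22 CPM in RCC4, and 64.7 ± 5.4 and 55.5 ± 3.11 CPM in HepG2. The sums of normoxic and hypoxic samples overlapped in HKC-8. In RCC4 every hypoxic sum (44.1 to 48.1 CPM) was above every normoxic sum (38.5 to 41.2), and in HepG2 every hypoxic sum (51.9 to 57.8) was below every normoxic sum (58.8 to 69.3).

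**Figure D2:**
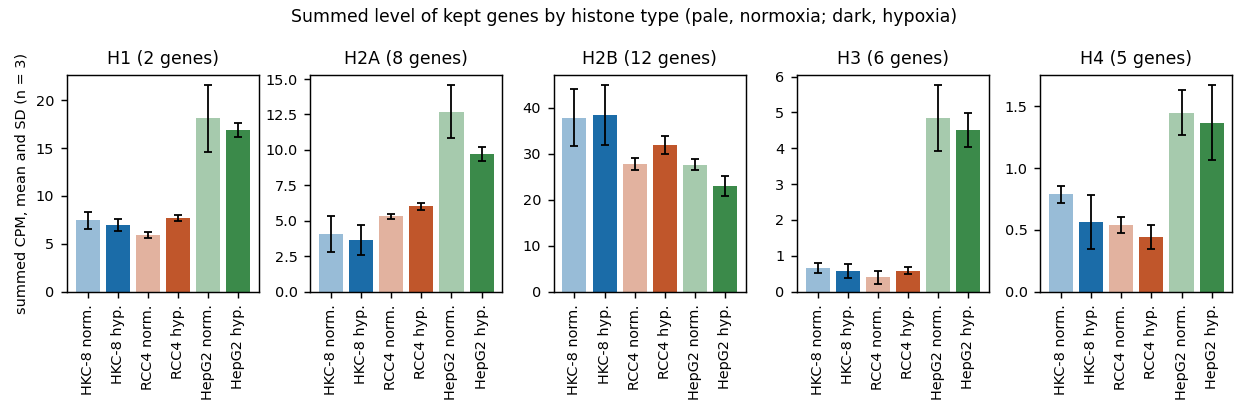
Summed CPM of the kept genes of each histone type (vertical axis, a separate scale for each type, from 0) in the 6 groups, as mean and SD of 3 samples. H2B genes gave the largest sums in each group, and the H1, H2A, H3 and H4 sums were higher in HepG2 than in the other lines.

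By histone type, the 12 H2B members together stood at 37.8 CPM ± 6.21 (SD, n = 3) in normoxic HKC-8, 27.8 ± 1.31 in normoxic RCC4 and 27.6 ± 1.16 in normoxic HepG2, or 71.1% to 76.1%, 68.8% to 70.9% and 38.0% to 47.3% of the member counts. The 6 H3 members reached 0.659 ± 0.150 CPM in normoxic HKC-8, 0.393 ± 0.177 in normoxic RCC4 and 4.85 ± 0.918 in normoxic HepG2. The 5 H4 members stayed at 1.45 ± 0.182 CPM or less in every group mean. The core histones, which enter the nucleosome in equal number, thus had very unequal sums in these polyA+ libraries, where the CPM summed here are not per length. The sums also depend on which copies can be mapped uniquely. HIST2H3A, HIST2H3C, HIST2H4A and HIST2H4B, which have no unique 31-base word, were at 0 counts in every sample.

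In each line HIST1H2BD was higher in every hypoxic than in every normoxic sample, HIST2H2BE moved in opposite directions in HKC-8 and HepG2, and most of the other tested members did not pass the test. Genes were tested with edgeR's quasi-likelihood test on all genes of a line that passed its filter on low counts, and a gene was called at a Benjamini-Hochberg adjusted p under 0.05. In HKC-8, 20 members were tested, 2 rose and 0 fell, where 11.2% of all tested genes rose and 9.12% fell. These shares of all genes rest on single samples, since 687 of 13739 rose and 326 fell without normoxia 1, and 750 of 13656 and 342 without hypoxia 1. At an unadjusted p under 0.05, 3 rose and 0 fell in HKC-8, and DESeq2 gave 3 that rose and 0 that fell. In RCC4, 11 were tested, 2 rose and 0 fell, where 25.9% of all genes rose and 24.2% fell. At an unadjusted p under 0.05, again 2 rose and 0 fell in RCC4, and DESeq2 gave 0 that fell. In HepG2, 23 were tested, 1 rose and 3 fell, where 19.9% of all genes rose and 19.2% fell. At an unadjusted p under 0.05 these were 1 and 5. The members' shares at the adjusted threshold are thus no higher than those of all genes with this test. The shares of all genes at an unadjusted p under 0.05 are not given here. Nothing is read from any of these counts about the members. Over the tested members the log2 fold changes had a median of -0.16 for HKC-8, 0.09 for RCC4 and -0.15 for HepG2, beside 0.00 over all tested genes of each line. These medians depend on single samples, as they ran from -0.28 (without hypoxia 2) to 0.00 (without hypoxia 3) in HKC-8, from 0.04 (without hypoxia 1) to 0.22 (without normoxia 3) in RCC4, and from -0.26 (without normoxia 3) to -0.00 (without normoxia 2) in HepG2. In HKC-8 the 6 tested members with a positive and 14 with a negative change included 2, HIST1H2AG and HIST1H2BN, that passed the filter through their hypoxic samples alone, and 1, HIST1H4D, that passed through its normoxic samples alone. Such genes had to differ.

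**Figure D3:**
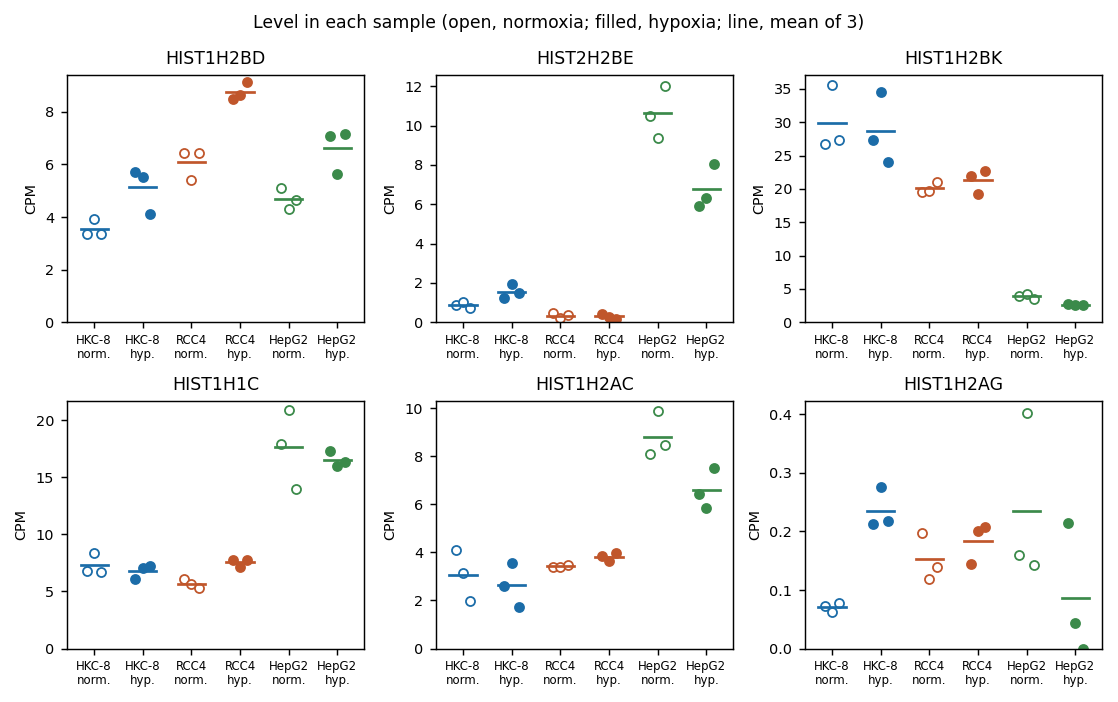
CPM of 6 members (vertical axis, from 0) in each of the 18 samples, by cell line and condition, with open points for normoxia, filled points for hypoxia and a line at the mean of 3. HIST1H2BD was higher in every hypoxic than in every normoxic sample of its line, whereas HIST2H2BE moved up in HKC-8 and down in HepG2.

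HIST1H2BD, which encodes an H2B of the chromosome 6 cluster, was the tested member whose conditions did not overlap in any of the 3 lines. The share of all genes with this pattern is not given here, so it is not read as particular to this gene. Of all tested genes, 25.9% were called higher in hypoxia in RCC4 and 19.9% in HepG2. In HKC-8 it stood at 3.36, 3.94 and 3.34 CPM in normoxia and at 5.73, 5.52 and 4.13 CPM in hypoxia. In RCC4 it stood at 6.44, 5.42 and 6.44 CPM and then at 8.49, 8.63 and 9.13 CPM. In HepG2 it stood at 5.12, 4.32 and 4.63 CPM and then at 7.07, 5.64 and 7.14 CPM. Within each line every hypoxic sample lay above every normoxic sample. The log2 fold change was 0.53 (SE 0.10, adjusted p = 1.75e-04, 1.44-fold) in RCC4 and 0.49 (SE 0.13, adjusted p = 0.0100, 1.41-fold) in HepG2. In HKC-8 it was 0.53 (SE 0.17, 1.45-fold) and missed the threshold with an adjusted p of 0.0549. Same-numbered HKC-8 samples deviated together, less so for replicate 1 (r = 0.176) than for 2 and 3 (0.631 and 0.577). With the replicate number as a block the HKC-8 value was 0.52 (SE 0.13) with an adjusted p of 0.00952. DESeq2 gave 0.53 with an adjusted p of 0.0197 there, and a fit of all 18 samples also called it in HKC-8. The other scalings and low-count filters did not. Of the fits that left out 1 HKC-8 sample, only that without hypoxia 3 called it. The difference in its response between HepG2 and HKC-8, tested as an interaction, was -0.04 with a 95% interval from -0.48 to 0.40 on the log2 scale, so that a difference of up to that size was not detectable.

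HIST2H2BE, which encodes an H2B of the chromosome 1 cluster, moved in opposite directions in HKC-8 and HepG2. In HKC-8 it was at 0.887, 1.01 and 0.748 CPM in normoxia and at 1.23, 1.92 and 1.5 CPM in hypoxia. In HepG2 it was at 10.5, 9.38 and 12 CPM in normoxia and at 5.90, 6.34 and 8.04 CPM in hypoxia. In both lines the conditions did not overlap. The log2 fold change was 0.82 (SE 0.25, adjusted p = 0.0471, 1.77-fold) in HKC-8 and -0.66 (SE 0.13, adjusted p = 0.00165, 0.635-fold) in HepG2. The HKC-8 call was lost when any of its 6 samples was left out, with adjusted p-values from 0.0659 (without hypoxia 1) to 0.138 (without normoxia 1). RCC4 held 0.454, 0.219 and 0.351 CPM in normoxia and 0.433, 0.280 and 0.186 CPM in hypoxia, which overlapped (log2 fold change -0.18, SE 0.47, adjusted p = 0.780). The interaction of line and condition, HepG2 minus HKC-8, was -1.48 (SE 0.27, adjusted p = 0.00284).

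The interaction was tested on 29 members in the 12 samples of HKC-8 and HepG2, whose labels give the same hypoxia. It was positive and called for 0 members and negative and called for 2, where 5.02% of all tested genes were called positive and 4.28% negative. At an unadjusted p under 0.05 it was 0 and 4 members, and the share of all genes at that threshold is not given here. Nothing is read from these counts about the members. The other called member was HIST1H2AG, an H2A gene of few counts. In HKC-8 it had 6, 5 and 7 counts in normoxia and 17, 27 and 18 in hypoxia, and in HepG2 7, 18 and 6 counts in normoxia and 9, 2 and 0 in hypoxia. The HKC-8 conditions did not overlap, whereas those of HepG2 did. Since it passed the HKC-8 filter through its hypoxic samples alone, its fitted HKC-8 change of 1.73 (SE 0.42, adjusted p = 0.0216) is a description and no support for a rise. The interaction was -3.15 (SE 0.94, adjusted p = 0.0480), on the same few counts, and is likewise a description. The HKC-8 call was lost when any sample but normoxia 3 was left out, with adjusted p-values from 0.0527 to 0.0838, and the interaction call when any of its 12 samples but HKC-8 normoxia 3 and HepG2 hypoxia 1 was left out, up to 0.182 without HepG2 normoxia 2. RCC4 samples of this gene had 10, 6 and 6 counts and then 7, 10 and 10, too few to be tested there.

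**Figure D4:**
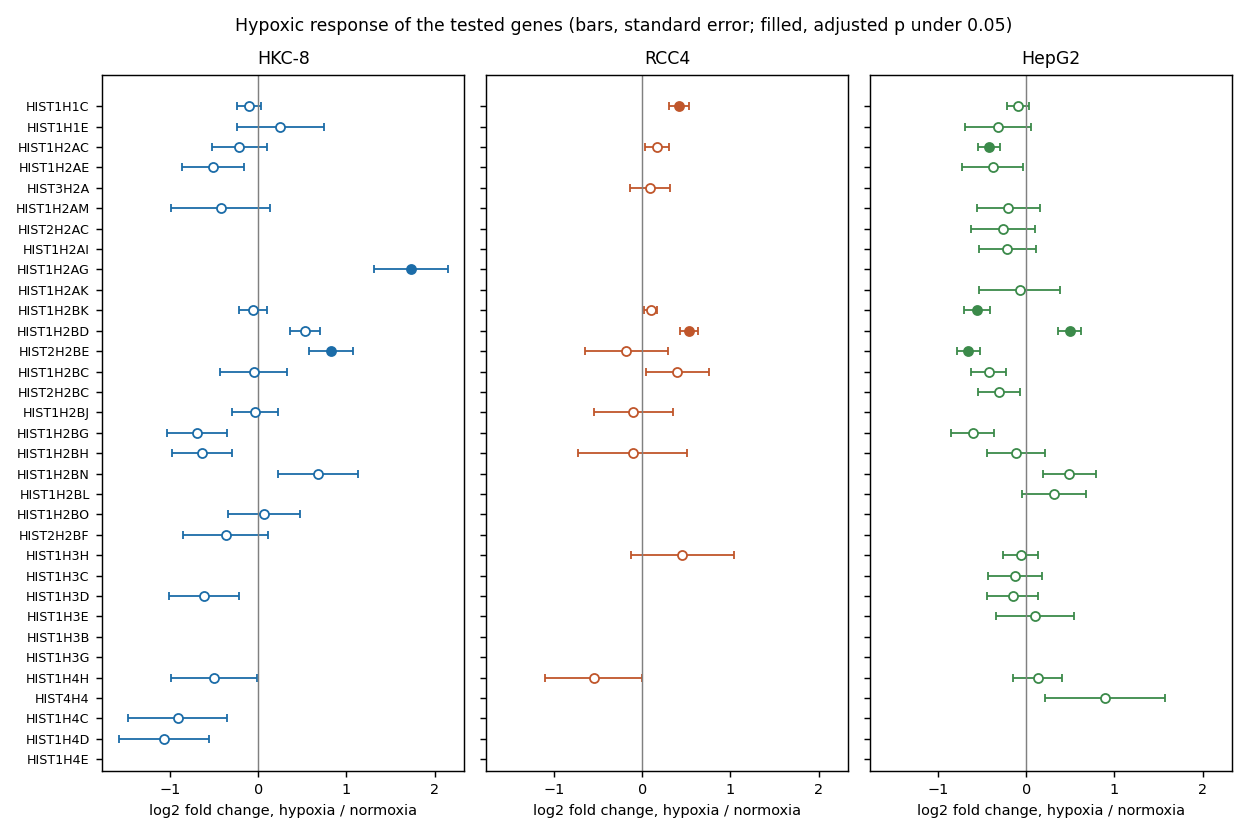
Log2 fold change of hypoxia over normoxia (horizontal axis) of each tested member (vertical axis), a panel per cell line, with bars for the standard error and filled points for an adjusted p under 0.05. Of the filled points HIST1H2BD is to the right of 0 in RCC4 and HepG2, HIST2H2BE is to the right in HKC-8 and to the left in HepG2, and most of the other points are open.

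HIST1H2BK, the member with the most counts in the renal lines, fell in HepG2 alone among the 3 tests. It was at 3.94, 4.25 and 3.53 CPM in normoxic and 2.67, 2.65 and 2.66 CPM in hypoxic HepG2, with no overlap (log2 fold change -0.56, SE 0.15, adjusted p = 0.00966). In HKC-8 it was at 26.8, 35.5 and 27.3 CPM and then at 27.4, 34.5 and 24.0 CPM, which overlapped (-0.06, SE 0.16, 95% interval -0.37 to 0.25). In RCC4 it was at 19.5, 19.7 and 21 CPM and then at 22.0, 19.3 and 22.7 CPM, which also overlapped (0.09, SE 0.07, 95% interval -0.04 to 0.23). The interaction between HepG2 and HKC-8 was -0.49 (SE 0.22, adjusted p = 0.176), and with the replicate number as a block its adjusted p was 0.0234. Whether the number pairs samples in either line is not settled. A difference between these lines thus depended on the model.

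HIST1H2AC, an H2A gene, also fell in HepG2. Its level there was 8.09, 9.89 and 8.45 CPM in normoxia and 6.43, 5.86 and 7.50 CPM in hypoxia. The conditions did not overlap, and the log2 fold change was -0.42 (SE 0.13, adjusted p = 0.0182). The call was lost without HepG2 normoxia 2 (adjusted p = 0.0810), hypoxia 1 (0.0596) or hypoxia 2 (0.0877). In RCC4 the hypoxic samples (3.83, 3.64 and 3.97 CPM) were above the normoxic ones (3.40, 3.38 and 3.46 CPM) but the change of 0.17 (SE 0.14) did not pass (adjusted p = 0.322). In HKC-8 the normoxic samples were at 4.10, 3.13 and 1.97 CPM and the hypoxic ones at 2.62, 3.54 and 1.73 CPM (-0.21, SE 0.31, adjusted p = 0.668).

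The linker histone HIST1H1C rose in RCC4. It was at 6.08, 5.64 and 5.29 CPM in normoxia and 7.79, 7.15 and 7.74 CPM in hypoxia, with no overlap (0.42, SE 0.11, adjusted p = 0.00205). In HKC-8 it was at 6.81, 8.38 and 6.73 CPM and then at 6.07, 7.05 and 7.21 CPM, and in HepG2 at 17.9, 20.9 and 14 CPM and then at 17.3, 16.0 and 16.3 CPM. Both pairs overlapped, with log2 fold changes of -0.11 (SE 0.14, adjusted p = 0.641) and -0.09 (SE 0.12, adjusted p = 0.596). The other kept linker gene, HIST1H1E, which encodes H1.4, was not above 0.668 CPM in any sample and was tested in HKC-8 (0.25, SE 0.49) and HepG2 (-0.32, SE 0.37), where it did not pass. By its labels RCC4 had another oxygen level and time than the other lines, whereas the study's text gives the 0.5% and 16 hours of the others for it too. Which holds is not settled here, and no test of a difference of RCC4 from the other lines was made.

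H3 and H4 members gave 0 calls in any of the 3 lines, with 6 of them tested in HepG2, 4 in HKC-8 and 2 in RCC4. Of all tested genes 19.9% rose and 19.2% fell in HepG2, 11.2% and 9.12% in HKC-8, and 25.9% and 24.2% in RCC4. With so few tests, nothing is read from the lack of calls about H3 or H4 genes. Calls appeared on few counts under other settings, for HIST1H3D and HIST4H4 in RCC4 without a low-count filter, for HIST1H3D in RCC4 in a fit of all 18 samples, and for HIST1H4D in HepG2 without normoxia 3. HIST1H3H, an H3 gene, was at 3.44, 3.00 and 2.22 CPM in normoxic and 3.36, 2.37 and 2.59 CPM in hypoxic HepG2. These overlapped, and the change was -0.06 (SE 0.20, 95% interval -0.45 to 0.33). HIST1H4H, an H4 gene, changed by 0.13 (SE 0.28) in HepG2, -0.50 (SE 0.49) in HKC-8 and -0.55 (SE 0.55) in RCC4, none past the threshold. HIST2H2BC was at 2.20, 1.43 and 1.36 CPM in normoxic and 1.40, 1.48 and 1.14 CPM in hypoxic HepG2, which overlapped (-0.31, SE 0.24, adjusted p = 0.337).

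HIST1H2AE, an H2A gene, was at 0.516, 0.517 and 0.330 CPM in normoxic and 0.326, 0.389 and 0.230 CPM in hypoxic HKC-8, and at 1.31, 1.61 and 0.907 CPM and then 1.52, 0.847 and 0.569 CPM in HepG2. Both pairs overlapped, with changes of -0.51 (SE 0.35, adjusted p = 0.330) and -0.38 (SE 0.34, adjusted p = 0.400). Among the lower H2B genes, HIST1H2BG was lower in every hypoxic than in every normoxic sample of HKC-8 and of HepG2, and its change did not pass in HKC-8 (-0.70, SE 0.34, adjusted p = 0.180) or HepG2 (-0.61, SE 0.24, adjusted p = 0.0650). HIST1H2BC was at 3.88, 3.76 and 3.32 CPM in normoxic and 2.71, 1.98 and 3.52 CPM in hypoxic HepG2, where a single hypoxic sample reached the normoxic range (-0.43, SE 0.20, adjusted p = 0.103). HIST3H2A in RCC4 was at 1.67, 1.60 and 1.26 CPM in hypoxia and overlapped its normoxic level (0.09, SE 0.23, adjusted p = 0.779).

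H2A and H2B genes often stand head to head and share the stretch between their starts. Of the kept members with a model, 14 have a histone partner that starts within 500 bases on the other strand. HIST2H2BE and HIST2H2AC start 236 bases apart, and in HepG2 the H2A partner changed by -0.26 (SE 0.36, adjusted p = 0.596) beside the -0.66 of HIST2H2BE. HIST1H2AC and HIST1H2BC start 246 bases apart, with changes of -0.42 and -0.43 in HepG2. HIST1H2AG and HIST1H2BJ start 248 bases apart, and in HKC-8 HIST1H2BJ gave -0.04 (SE 0.26) beside the 1.73 of its partner. The partner of HIST1H2BK, HIST1H2AH, 251 bases away, had too few counts to be kept, as had HIST3H2BB, the partner of HIST3H2A at 230 bases. Differences in response within a pair were not tested.

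Genes that act on histones and on S phase were examined beside the members. Among 34 genes of S phase and DNA replication, 3 rose and 5 fell in HKC-8, 4 rose and 16 fell in RCC4, and 2 rose and 17 fell in HepG2. All tested genes rose and fell in shares of 11.2% and 9.12% in HKC-8, 25.9% and 24.2% in RCC4, and 19.9% and 19.2% in HepG2. PCNA, the replication clamp, changed by -0.63 (SE 0.08, adjusted p = 3.87e-05) in HepG2, -0.18 (SE 0.03, adjusted p = 7.42e-05) in RCC4 and -0.09 (SE 0.07, adjusted p = 0.440) in HKC-8. Its interaction, HepG2 minus HKC-8, was -0.54 (SE 0.11, adjusted p = 0.00720). CCNE2, a cyclin of the entry into S phase, rose in HKC-8 (0.43, SE 0.11, adjusted p = 0.0277). CCNA2, the S phase cyclin, fell in HKC-8 (-0.32, SE 0.08, adjusted p = 0.0264) and HepG2 (-0.27, SE 0.06, adjusted p = 0.00341) and gave -0.00 (SE 0.05) in RCC4. POLE2, a polymerase subunit, fell in HKC-8 (-0.54, SE 0.09, adjusted p = 0.00386) and HepG2 (-0.72, SE 0.09, adjusted p = 4.26e-05). The helicase genes MCM5, in HKC-8 (-0.57, SE 0.10, adjusted p = 0.00691), and GINS2, in HepG2 (-0.62, SE 0.10, adjusted p = 2.55e-04), also fell. In RCC4 the largest changes were those of the regulators E2F2 (-0.59, SE 0.09), E2F1 (-0.45, SE 0.05) and CCNE1 (-0.37, SE 0.07). The part of these genes in the members' changes was not tested.

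Of 14 genes that make or process histone mRNA, 0 rose and 3 fell in HKC-8, 4 rose and 3 fell in RCC4, and 0 rose and 4 fell in HepG2. The shares of all tested genes were 11.2% and 9.12% in HKC-8, 25.9% and 24.2% in RCC4, and 19.9% and 19.2% in HepG2. With so few genes, nothing is read from these counts about the list. SLBP, which binds the stem-loop, was at 75.8, 73.3 and 74.7 CPM in normoxic and 73.8, 76.6 and 77.7 CPM in hypoxic HKC-8, which overlapped. In HepG2 it fell from 93.4, 93.6 and 97.6 CPM to 80.0, 83.8 and 78.4 CPM (-0.23, SE 0.06, adjusted p = 0.00575). NPAT, the activator of histone gene transcription, and CASP8AP2, a protein of the histone locus body, rose in RCC4 (0.35, SE 0.05, adjusted p = 5.19e-06, and 0.65, SE 0.08, adjusted p = 1.69e-07). CSTF2, a cleavage factor, fell in HKC-8 (-0.52, SE 0.11, adjusted p = 0.0121), RCC4 (-0.25, SE 0.06, adjusted p = 5.24e-04) and HepG2 (-0.20, SE 0.07, adjusted p = 0.0371). ZNF473, a protein of the U7-dependent cut, fell in HKC-8 (-0.48, SE 0.10, adjusted p = 0.0143) and HepG2 (-0.52, SE 0.09, adjusted p = 4.47e-04), and CPSF3, the cutting enzyme itself, in HKC-8 (-0.37, SE 0.08, adjusted p = 0.0128). LSM10, a part of the U7 particle that cuts histone mRNA, fell in RCC4 (-0.54, SE 0.05, adjusted p = 3.57e-09) and HepG2 (-0.79, SE 0.10, adjusted p = 4.09e-05), and its -0.62 (SE 0.20) in HKC-8 missed the threshold (adjusted p = 0.0533).

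Of 20 histone chaperones and partners, 1 rose and 3 fell in HKC-8, 5 rose and 6 fell in RCC4, and 4 rose and 5 fell in HepG2. Beside these stand 11.2% and 9.12% of all tested genes in HKC-8, 25.9% and 24.2% in RCC4, and 19.9% and 19.2% in HepG2. The counts are near these shares, and nothing is read from them about the list. ASF1A, a chaperone of H3 and H4, fell in HKC-8 from 83.0, 70.9 and 78.2 CPM to 44.6, 43.6 and 47.3 CPM (-0.77, SE 0.08, adjusted p = 5.4e-04), in RCC4 (-0.22, SE 0.05, adjusted p = 4.07e-04) and in HepG2 (-0.34, SE 0.08, adjusted p = 0.00343). HAT1, which acetylates new H4, also fell in the 3 lines. CABIN1, a part of the HIRA chaperone complex, rose in HKC-8 (0.47, SE 0.07, adjusted p = 0.00341) and HepG2 (0.51, SE 0.08, adjusted p = 1.60e-04), and ATRX, a remodeller that deposits H3.3, rose in RCC4 (0.68, SE 0.06, adjusted p = 5.60e-09) and HepG2 (0.46, SE 0.08, adjusted p = 5.95e-04). In RCC4 NAP1L1, a chaperone of H2A and H2B, and HJURP, that of CENP-A, rose as well (0.32, SE 0.03, and 0.27, SE 0.04), and in HKC-8 NASP, a chaperone of H3 and H4, fell (-0.26, SE 0.07, adjusted p = 0.0336).

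Variant histones are encoded outside the clusters and their mRNAs mostly carry polyA tails. Of 12 such genes, 1 rose and 1 fell in HKC-8, 2 rose and 3 fell among the 10 tested in RCC4, and 3 rose and 2 fell among the 10 tested in HepG2. Shares of all tested genes were 11.2% and 9.12% in HKC-8, 25.9% and 24.2% in RCC4, and 19.9% and 19.2% in HepG2. The counts are near these, and nothing is read from them about the list. H1F0, a linker histone of resting and differentiated cells, rose in HepG2 from 324, 323 and 345 CPM to 522, 508 and 550 CPM (0.67, SE 0.06, adjusted p = 1.68e-06). It was at 419, 387 and 471 CPM and then at 438, 359 and 509 CPM in HKC-8, where it overlapped, and the interaction was 0.64 (SE 0.15, adjusted p = 0.0151). In all 6 RCC4 samples H1F0 was listed at 0 counts. H2AFZ, the H2A.Z gene, fell in HepG2 (-0.40, SE 0.08, adjusted p = 0.00164) and RCC4 (-0.11, SE 0.03, adjusted p = 0.0136), and CENPA, the centromeric H3, fell in HepG2 (-0.37, SE 0.08, adjusted p = 0.00183). H3F3B, an H3.3 gene, fell in HKC-8 (-0.34, SE 0.10, adjusted p = 0.0451) and RCC4 (-0.11, SE 0.03, adjusted p = 0.0139). H3F3A, the other H3.3 gene, had only 3 to 20 counts per sample, so that little can be read from it. It was tested in HKC-8 only and did not pass (0.69, SE 0.41, adjusted p = 0.267). H2AFX, the H2A.X gene, fell in RCC4 (-0.12, SE 0.04, adjusted p = 0.0234), H2AFY2, a macroH2A gene, rose there (0.99, SE 0.30, adjusted p = 0.00849), and H2AFV rose in HKC-8 (0.27, SE 0.07, adjusted p = 0.0349).

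Single members differed widely in level between the cell lines. In normoxia 26 members were tested between lines in 1 fit of 9 samples. In RCC4 against HKC-8, 2 were higher and 9 lower, where 39.4% of all tested genes were higher and 41.4% lower. In HepG2 against HKC-8, 19 were higher and 3 lower, where 42.6% and 40.5% of all genes were. In HepG2 against RCC4, 18 were higher and 3 lower, where 45.3% and 38.1% of all genes were. Many members entered these tests through 1 line, and such genes had to differ. Of the 19 that were higher in HepG2 than in HKC-8, 8 reached the filter's level in no HKC-8 sample, and of the 18 higher than in RCC4, 12 reached it in no RCC4 sample. Among members that reached it in both lines, 11 of 17 were higher and 2 lower in HepG2 than in HKC-8, 6 of 12 were higher and 2 lower than in RCC4, and 1 of 11 was higher and 5 lower in RCC4 than in HKC-8. The median log2 difference over the tested members was -0.73, 1.56 and 3.00 in these comparisons, beside -0.01, 0.02 and 0.11 over all tested genes, but -0.30, 1.40 and 1.36 over the 7 members with at least 10 counts in every sample. These counts and medians therefore describe the members that passed and are no support for a difference of the whole group. Normoxic HKC-8 samples held 81597396 to 84593123 counts, against 41511343 to 49594033 in the normoxic samples of the other lines. Cell line cannot be told apart from depth in the comparisons with HKC-8. In none of the comparisons can it be told apart from how the samples of a line were handled.

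HIST2H2BE was higher in normoxic HepG2 than in HKC-8 by 3.61 (SE 0.20, adjusted p = 8.88e-10) and than in RCC4 by 4.96 (SE 0.24, adjusted p = 1.76e-10), and RCC4 was below HKC-8 by a log2 difference of -1.35 (SE 0.27, adjusted p = 3.42e-04). The order HepG2, HKC-8, RCC4 thus held beyond the spread at each step. HIST1H2BK had the order HKC-8, RCC4, HepG2, with log2 differences of -0.56 (SE 0.11, adjusted p = 4.35e-04) for RCC4 and -2.91 (SE 0.13, adjusted p = 7.28e-11) for HepG2 against HKC-8. HIST1H2BD was highest in RCC4 (0.79, SE 0.14, adjusted p = 1.71e-04, against HKC-8), and HepG2 was below RCC4 by a log2 difference of -0.37 (SE 0.15, adjusted p = 0.0313), a call lost without RCC4 normoxia 1 (adjusted p = 0.0945), RCC4 normoxia 3 (0.0818) or HepG2 normoxia 2 (0.0625). HIST1H3H was higher in HepG2 than in HKC-8 by 4.66 (SE 0.33, adjusted p = 9.29e-09), and its RCC4 and HKC-8 levels did not pass a test of their difference (0.62, SE 0.43, adjusted p = 0.200). HIST1H1C was higher in HepG2 than in HKC-8 by 1.29 (SE 0.15, adjusted p = 2.38e-06) and HIST2H2BC, an H2B pseudogene, by 4.46 (SE 0.40, adjusted p = 1.48e-07). HIST3H2A, an H2A gene of a small locus on chromosome 1, was at 1.32, 1.47 and 1.5 CPM in normoxic RCC4, at 0.0959, 0.0739 and 0.0330 CPM in normoxic HKC-8 and at 0 counts in every HepG2 sample. RCC4 was above HKC-8 by 4.39 (SE 0.39, adjusted p = 5.25e-07) and at least 20.8-fold above HepG2, counted against 3 counts per HepG2 library.

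Between lines the files may not be alike. Of 46 protein-coding genes at 10 CPM or more in HepG2 within the major histocompatibility interval, on chromosome 6 next to the HIST1 cluster, 20 (43.5%) were under 1 CPM in both HKC-8 and RCC4, against 306 of 8445 (3.62%) elsewhere in the genome. Among the genes interspersed with the HIST1 members, chr6:25726291-27861669, this was so for 0 of 8. The labels name the same build and tools for all samples. Whether reads of the lines were aligned or counted differently was not tested, and a difference between lines in processing cannot be told apart from a difference in level. Calls are given by uniqueness. Of 11 tested members with at least 90% unique 31-base words, 8 were higher and 1 was lower in HepG2 than in HKC-8, and of 13 with less, 9 were higher and 2 lower. In RCC4 against HKC-8 the first group had 1 higher and 2 lower (median log2 difference -0.08) and the second 1 higher and 6 lower (median -0.97). The part of mapping in these differences was not tested. The hypoxia comparisons were each made within a line.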

How the data were processed

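PolyA+ RNA of HKC-8, RCC4+VHL and HepG2 cells was made into ScriptSeq v2 libraries and deposited as raw gene counts, 1 file per sample. Per the labels and the study's methods, the authors trimmed reads with Trim Galore 0.3.3, aligned them to GRCh37 with TopHat 2.0.8b and Bowtie 1.0.0, removed non-uniquely mapped fragments with SAMtools 0.1.19, and made the counts with HTSeq 0.5.4p3 on UCSC genes (intersection-strict); the strand setting is not given in the sources used here.

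Counts were tested with edgeR 4.0.16 in R 4.3.3 (filterByExpr, TMM, glmQLFit, glmQLFTest) over all genes passing the filter, adjusting p-values by Benjamini-Hochberg and calling a gene under 0.05. Each line was fitted alone on its 6 samples, the interaction on 12 and the normoxic lines on 9. SE is the absolute log2 fold change over the root of F. CPM use TMM over 18 samples. The fit was tested on simulated data. Alternatives were DESeq2 1.42.0, total count scaling, other low-count filters, 1 fit of all 18 samples, a replicate block, and leaving out each sample. Same-numbered HKC-8 samples deviated together (r = 0.176, 0.631 and 0.577), so there the blocked value stands beside HIST1H2BD. The HepG2 values (0.231, 0.0546 and 0.226) were partly above the lowest of these, and no label says what the number marks. Named were the 12 members highest in mean CPM, per line up to 8 called members with the largest change and no overlap of conditions, the H1 members, up to 5 with the largest called interaction, and those at the edge of the count rule; of the pathway lists, set genes and the 3 largest called changes per line. HIST1H4H, HIST2H2AC, HIST1H2BN and HIST1H4D were named outside the rule, after their values were seen. Replicates of a group differed by more than sampling noise in all 18 pairs.

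Sequences were read from GRCh37 with GENCODE 44 models (Python 3.11.15, pysam 0.24.0), and older symbols were matched through RefSeq tables. The 7 members without a single model have no sequence here. The members and the gene lists were chosen with earlier results of these data known.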

Additional observations from a re-analysis of the deposited data

Results flagged for a closer look

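The interaction term of edgeR's quasi-likelihood test, the difference of the log2 fold change in HepG2 minus that in HKC-8, was called for 2 members. For HIST2H2BE the difference was -1.48 (95% interval -2.01 to -0.95, adjusted p = 0.00284), with every hypoxic sample above every normoxic sample in HKC-8 and the reverse in HepG2. For HIST1H2AG it was -3.15 (95% interval -4.99 to -1.31, adjusted p = 0.0480), on 0 to 27 counts per sample, and the call was lost when any of 10 of its 12 samples was left out. In HKC-8 only the hypoxic samples of HIST1H2AG reached the filter's level, so its value is a description and no support for a difference. The cause of either difference was not tested.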

How the results depend on the processing

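No direction was reversed under the alternatives run. With at least 10 counts in every sample, members called fell to 1 higher in HKC-8 and 1 negative interaction. Of all genes, 1473 of 12854 and 686 of 11572 were so called. Between normoxic lines they fell to 1 higher and 3 lower for RCC4 against HKC-8, 6 higher and 1 lower for HepG2 against HKC-8, and 4 higher and 2 lower for HepG2 against RCC4. Of 10982 genes, 4698 were higher and 4543 lower, 4557 and 4535, and 4560 and 4439, in that order. Fewer members were tested there. In HepG2 hypoxia HIST1H2BG gained a call. Without a low-count filter, 4 were higher in RCC4 hypoxia, 1 interaction was negative and 14 were lower in normoxic RCC4 than in HKC-8. Of all genes, 3437 of 16327, 641 of 18877 and 6428 of 18546 were so called. A fit of all 18 samples gave 4 higher in RCC4, where 1867 of 15307 genes were. HIST1H2AC in HepG2 then had an adjusted p of 0.175. Total count scaling gave 5 lower in HepG2, adding HIST1H2BC and HIST1H2BG, moved the median of all genes there to -0.10, and gave 1978 higher and 4081 lower of all genes (2708 and 2621 with TMM), 2289 and 4651 in RCC4 (3318 and 3105), and 458 and 938 for the interaction (755 and 644). Leaving out 1 sample gave 0 to 1 higher members in HKC-8 and 1 to 2 negative interactions. Nothing is read from these counts about the members.

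The replicate block gave 3 higher in HKC-8 and, of all genes, 2836 higher and 2919 lower (1522 and 1235 without it). Same-numbered samples were hardly correlated in RCC4 (r from -0.00647 to 0.0325). The HepG2 values (r from 0.0546 to 0.231) overlapped those of HKC-8 (0.176 to 0.631). Whether the number pairs samples in either line is thus not settled. With the block the interaction of HIST1H2BK was -0.49 with an adjusted p of 0.0234, and HIST1H1E (0.0732) and HIST1H2BD (0.0556) lost their calls between HepG2 and RCC4 while HIST1H1C gained one between RCC4 and HKC-8; it changed no other call of a member. The cause of these changes was not tested. Low counts limit what can be tested: 14 of the 33 members had fewer than 10 counts in every RCC4 sample.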
